A study of Rattus norvegicus with 23 samples.

Results

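Osteopontin (Spp1), clusterin (Clu), vimentin (Vim), galectin 3 (Lgals3), lipocalin 2 (Lcn2), CD44 (Cd44) and the secretory leukocyte protease inhibitor (Slpi) are 7 genes widely read as signs of tubular injury in the kidney. They were found by symbol among 14217 genes represented on Affymetrix arrays, and 9 of 31042 probe sets tested carried 1 of the 7 symbols and no other. Clu and Cd44 each had 2 probe sets, and the brighter one stood for the gene. Kidney RNA of male rats aged 4 months and fed ordinary chow was read on 23 arrays, and each array is taken here as 1 rat, which the numbered sample names do not state. The rats belonged to SBH/y and SBN/y, known as the hypertension-prone and hypertension-resistant lines of the Sabra rat. Right uninephrectomy 3 months earlier had left 6 SBH/y rats with 1 kidney, and 6 sham-operated SBH/y rats kept 2 kidneys. In SBN/y, 6 rats had 1 kidney after uninephrectomy and 5 sham-operated rats had 2. Proteinuria is the subject given in the title of the study.

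When the tubule is injured, its cells are known to lose part of their differentiated state and to make proteins that are scarce in the healthy nephron. Some of these are secreted. Osteopontin is an acidic glycoprotein that binds integrins and CD44, clusterin is an extracellular chaperone that also inhibits the terminal complement complex, lipocalin 2 binds iron-carrying siderophores and the product of Slpi inhibits neutrophil elastase. Others stay with the cell. CD44 is a receptor of hyaluronan and osteopontin, vimentin is an intermediate filament protein of mesenchymal and dedifferentiated epithelial cells, and galectin 3 is a lectin that binds beta-galactosides. Macrophages are a known source of several of these transcripts as well, and neutrophils store lipocalin 2 and the elastase inhibitor.

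Promoter sequences are given for Spp1 and Vim, which rose in SBH/y after uninephrectomy, and for Lcn2, which did not pass the test. RefSeq promoters of build GRCr8, from 250 bases before to 50 bases after the start used for each window, were held for 4 members: Spp1, Vim, Lcn2 and Cd44. Only for Vim was that start the outer end of the annotated gene. On the minus strand, the annotated genes begin at 5620695 for Spp1, 109699776 for Cd44 and 36081851 for Lcn2. The Spp1 and Cd44 windows thus lie wholly inside the annotated gene, and the Lcn2 start lies inside its gene. Distances given below count from the start used. Capitals mark matches to the motifs searched.
Spp1, chr14:5619755-5620054, minus strand: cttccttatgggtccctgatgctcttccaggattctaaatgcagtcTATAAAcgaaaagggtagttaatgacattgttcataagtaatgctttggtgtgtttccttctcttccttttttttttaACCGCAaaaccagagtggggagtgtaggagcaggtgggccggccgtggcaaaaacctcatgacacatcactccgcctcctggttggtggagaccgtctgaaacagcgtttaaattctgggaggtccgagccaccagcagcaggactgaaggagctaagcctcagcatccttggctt
Vim, chr17:81577011-81577310, plus strand: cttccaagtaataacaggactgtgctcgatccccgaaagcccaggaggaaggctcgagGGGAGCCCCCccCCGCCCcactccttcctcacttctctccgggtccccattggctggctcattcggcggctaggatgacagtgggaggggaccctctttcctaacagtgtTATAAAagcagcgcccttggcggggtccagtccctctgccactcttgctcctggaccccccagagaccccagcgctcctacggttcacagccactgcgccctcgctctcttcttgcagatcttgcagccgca
Lcn2, chr3:36081731-36082030, minus strand: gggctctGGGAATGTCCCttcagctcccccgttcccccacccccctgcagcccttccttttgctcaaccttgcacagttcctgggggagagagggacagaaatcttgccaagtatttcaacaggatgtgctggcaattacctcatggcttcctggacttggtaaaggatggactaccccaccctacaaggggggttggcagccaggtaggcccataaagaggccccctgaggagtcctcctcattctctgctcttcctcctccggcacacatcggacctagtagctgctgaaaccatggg

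Motifs were searched on both strands of these windows and of 33469 promoters of the same length. The NF-kB motif (GGGA, any 4 bases, then CC), present in 19.3% of all promoters, matched Lcn2 on both strands in overlapping positions that begin 243 and 242 bases before the start, and matched Vim once. TATAAA, present in 14.2%, lay 82 bases before the start in Vim and 204 in Spp1. The GC box GGGCGG (33.1% of all promoters) matched Vim only among the 4. The AP-1 motif TGANTCA (7.33%) and the STAT motif TTCNNNGAA (8.87%) were not found in any of the 4 windows. A pair of RUNX core motifs was added after the values had been seen. TGCGGT (6.39%) matched Spp1, in reverse, 126 bases before the start, and TGTGGT (17.3%) matched none. The Cd44 window held no match to any of the 7 motifs, which describes these letters only.

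The kidney origin of the RNA was visible in its own markers. Slc34a1, the phosphate transporter of the proximal tubule, averaged 12.25 ± 0.05 on the log2 scale in SBH/y rats with 1 kidney and 12.30 ± 0.05 in SBH/y rats with 2 kidneys (SD, n = 6 each), and uromodulin (Umod) averaged 12.42 ± 0.07 and 12.51 ± 0.03 in the same groups. Array medians lay between 4.65 and 4.69, and correlations between arrays of a group between 0.990 and 0.997. The 4 probe sets of Xist, which male rats hardly transcribe, lay between 2.14 and 3.13 and serve here as a view of background. As a measure of RNA quality, the GAPDH control signal (3′ probe set minus 5′ probe set, log2) was 0.53 ± 0.11 in SBH/y with 1 kidney, 0.46 ± 0.06 in SBH/y with 2, 0.45 ± 0.04 in SBN/y with 1 and 0.35 ± 0.03 in SBN/y with 2 (SD, n = 6, 6, 6 and 5).

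After uninephrectomy, 6 of the 7 genes rose in SBH/y kidneys, by between 1.43-fold (Lgals3) and 2.73-fold (Spp1), and none fell. Over all 31042 probe sets, limma called 3.06% upwards, and 5.04% in either direction, in the same comparison at an adjusted p under 0.05. The median difference of the 7 genes was 0.82 log2, against -0.01 over all probe sets. The same 6 genes had groups that did not overlap, a state found upwards at 1.81% of all probe sets. Lcn2 was the exception.

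**Figure D1:**
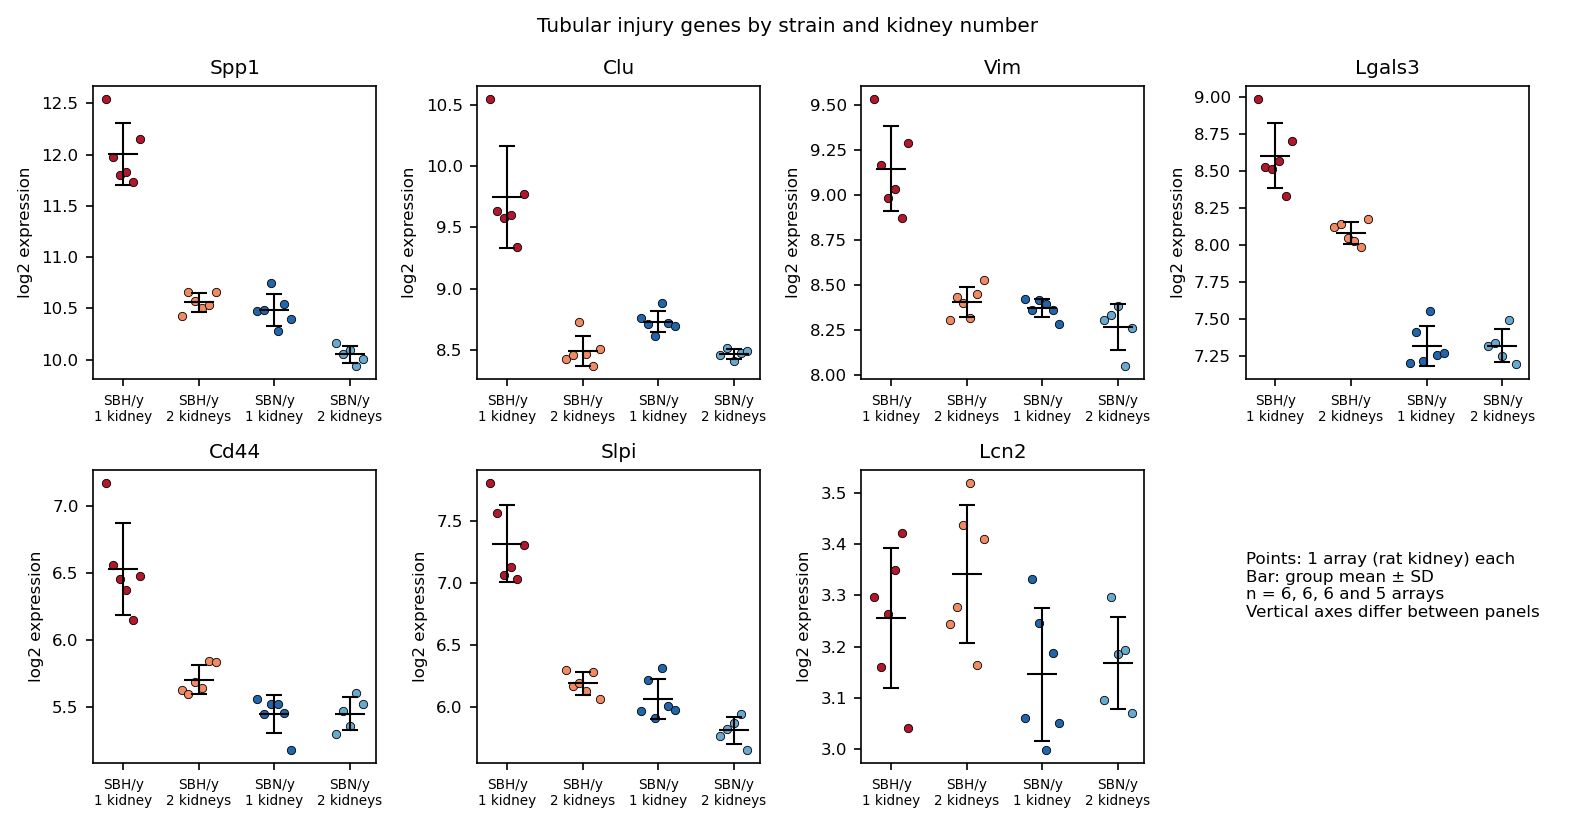
Log2 expression of each gene on every array (points), with group mean and SD (bars), for SBH/y and SBN/y rats with 1 or 2 kidneys (n = 6, 6, 6 and 5). In the first 6 panels every SBH/y rat with 1 kidney lies above every SBH/y rat with 2 kidneys, while the Lcn2 groups overlap within a narrow range of 3.00 to 3.52.

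Spp1 ranged from 11.74 to 12.54 (median 11.90) in SBH/y rats with 1 kidney, against 10.42 to 10.66 (median 10.55) in SBH/y rats with 2 kidneys. In SBN/y rats with 1 kidney it ranged from 10.28 to 10.75 (median 10.47), and the 5 SBN/y rats with 2 kidneys were read at 10.16, 10.06, 10.10, 9.94 and 10.01. The uninephrectomised SBH/y rats stood apart from every other rat, the groups SBH/y with 2 kidneys and SBN/y with 1 overlapped, and SBN/y rats with 2 kidneys lay lowest. The difference in SBH/y was 1.45 ± 0.10 log2 (SE), the 12th largest increase among all probe sets (limma, Benjamini-Hochberg adjusted p = 9.86e-10). In SBN/y the groups did not overlap either, but the difference of 0.43 ± 0.10 missed the threshold over all probe sets (limma adjusted p = 0.0924). When SBN/y arrays alone were fitted, the same difference passed, with a limma adjusted p = 0.0302.

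Clu ranged from 9.34 to 10.54 (median 9.62) in SBH/y rats with 1 kidney, against 8.37 to 8.72 (median 8.46) in SBH/y rats with 2 kidneys. In SBN/y rats with 1 kidney it ranged from 8.62 to 8.88 (median 8.72), and the 5 SBN/y rats with 2 kidneys were read at 8.46, 8.52, 8.41, 8.47 and 8.49. Both strains thus had separate groups, although the gap was far wider in SBH/y. There the difference was 1.25 ± 0.12 log2 (SE), or 2.38-fold (limma adjusted p = 1.45e-07). In SBN/y it was 0.26 ± 0.12, with a 95% interval of 0.01 to 0.51 (limma adjusted p = 0.634). In SBN/y, 2 of the 7 genes, Spp1 and Clu, had groups that did not overlap upwards, a state shared by 0.638% of all probe sets, while limma called 0 of 7 there against 0.0838% upwards over all probe sets. Unadjusted limma p values there were 0.000268 for Spp1, 0.0446 for Clu and 0.0233 for Slpi. For Cd44 the unadjusted limma p was 0.977 at the brighter probe set and 0.00577 at the dimmer one. The dimmer probe set of Clu had 0.0467. The share of all probe sets at such unadjusted values was not taken, so no response is read from them.

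Slpi, the secreted inhibitor of elastase, ranged from 7.03 to 7.80 (median 7.22) in SBH/y rats with 1 kidney, against 6.06 to 6.30 (median 6.18) in SBH/y rats with 2 kidneys. Among SBN/y rats with 1 kidney the range was 5.91 to 6.31 (median 5.995), and the 5 SBN/y rats with 2 kidneys were read at 5.76, 5.83, 5.87, 5.94 and 5.65. The SBH/y groups were separate and the SBN/y groups overlapped. Slpi rose by 1.13 ± 0.10 log2 (SE) in SBH/y (limma adjusted p = 6.18e-08), and differed by 0.26 ± 0.11 in SBN/y (limma adjusted p = 0.543).

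Cd44, the cell surface receptor, ranged from 6.15 to 7.17 (median 6.46) in SBH/y rats with 1 kidney, against 5.60 to 5.84 (median 5.66) in SBH/y rats with 2 kidneys. In SBN/y rats with 1 kidney it ranged from 5.18 to 5.56 (median 5.49), and the 5 SBN/y rats with 2 kidneys were read at 5.30, 5.47, 5.36, 5.60 and 5.53. The SBN/y groups lay on top of each other. Cd44 rose by 0.82 ± 0.11 log2 (SE) in SBH/y (limma adjusted p = 1.53e-05). In SBN/y the 95% interval of the difference ran from -0.23 to 0.23, so a change of the size seen in SBH/y lay outside it for this probe set.

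The dimmer probe set of Cd44 gave a similar order with larger differences. It ranged from 5.71 to 6.76 (median 6.01) in SBH/y rats with 1 kidney, against 4.75 to 5.24 (median 4.93) in SBH/y rats with 2 kidneys. It rose by 1.16 ± 0.13 log2 (SE) in SBH/y (limma adjusted p = 1.74e-06). In SBN/y it differed by 0.41 ± 0.14 (limma adjusted p = 0.353), where the brighter probe set differed by -0.00. Within groups, both probe sets of Cd44 moved together with a Pearson r of 0.57 over 23 arrays. The 2 probe sets of Clu did not (r = -0.05), and the dimmer one, between 2.95 and 3.64 on all arrays, lay close to the range of the Xist probe sets. That dimmer probe set of Clu differed by 0.18 ± 0.08 log2 (SE) in SBH/y (limma adjusted p = 0.214).

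**Figure D2:**
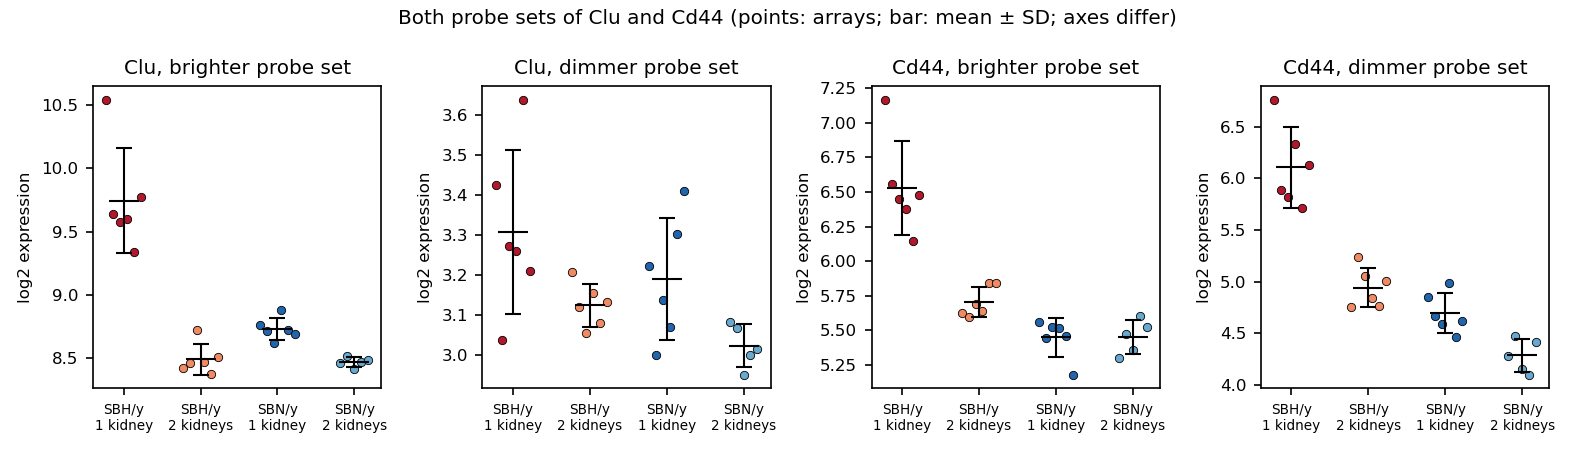
Log2 expression of the brighter and the dimmer probe set of Clu and of Cd44 on every array (points), with group mean and SD (bars); vertical axes differ. Both Cd44 probe sets separate SBH/y rats with 1 kidney from SBH/y rats with 2, whereas the dimmer Clu probe set stays between 2.95 and 3.64.

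Vim, the mesenchymal filament gene, ranged from 8.87 to 9.53 (median 9.10) in SBH/y rats with 1 kidney, against 8.31 to 8.53 (median 8.42) in SBH/y rats with 2 kidneys. Among SBN/y rats with 1 kidney the range was 8.28 to 8.42 (median 8.38), and the 5 SBN/y rats with 2 kidneys were read at 8.30, 8.33, 8.38, 8.05 and 8.26. Leaving aside the uninephrectomised SBH/y rats, the groups overlapped. Vim rose by 0.74 ± 0.08 log2 (SE), or 1.67-fold, in SBH/y (limma adjusted p = 1.12e-06), and differed by 0.11 ± 0.08 in SBN/y (limma adjusted p = 0.875).

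Lgals3 ranged from 8.33 to 8.98 (median 8.54) in SBH/y rats with 1 kidney, against 7.98 to 8.18 (median 8.08) in SBH/y rats with 2 kidneys. In SBN/y rats with 1 kidney it ranged from 7.20 to 7.55 (median 7.26), and the 5 SBN/y rats with 2 kidneys were read at 7.31, 7.34, 7.25, 7.49 and 7.20. Here the strains were apart at either kidney number, and every SBH/y rat lay above every SBN/y rat. Lgals3 rose by 0.52 ± 0.08 log2 (SE) in SBH/y (limma adjusted p = 0.00016). In SBN/y the difference had a 95% interval of -0.18 to 0.17 (limma adjusted p = 0.998).

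Lcn2, known in urine as a marker of acute injury, ranged from 3.04 to 3.42 (median 3.28) in SBH/y rats with 1 kidney, against 3.16 to 3.52 (median 3.34) in SBH/y rats with 2 kidneys. Among SBN/y rats with 1 kidney the range was 3.00 to 3.33 (median 3.12), and the 5 SBN/y rats with 2 kidneys were read at 3.10, 3.30, 3.19, 3.19 and 3.07. All 4 groups overlapped, well under the level of the median probe set (4.66) and just above the highest Xist value (3.13) or within its range. The difference in SBH/y was -0.09 ± 0.07 log2 (SE), with a 95% interval of -0.23 to 0.06 (limma adjusted p = 0.649), and in SBN/y -0.02 ± 0.08 (adjusted p = 0.987). Between strains, Lcn2 differed by 0.17 ± 0.08 with 2 kidneys (adjusted p = 0.188) and by 0.11 ± 0.07 with 1 (adjusted p = 0.402). At a level so close to background a change in the transcript may go unseen, so this probe set sets no limit on it.

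The response to uninephrectomy was larger in SBH/y than in SBN/y for 5 of the 7 genes by the interaction term of the limma fit, which called 0.209% of all probe sets in that direction and 0.254% in either. The excess was 1.01 ± 0.14 log2 (SE) for Spp1, with an adjusted p = 0.000762. It was 0.99 ± 0.17 for Clu (adjusted p = 0.00519) and 0.87 ± 0.15 for Slpi (adjusted p = 0.00477). Cd44 (0.83 ± 0.16, adjusted p = 0.0119) and Vim (0.63 ± 0.12, adjusted p = 0.0104) passed as well. Lgals3 had an excess of 0.52 ± 0.12 that narrowly missed the threshold (adjusted p = 0.053), with a 95% interval of 0.28 to 0.77. Its call turned on single arrays, since it passed without replicate 4 of SBN/y with 1 kidney (adjusted p = 0.0206) and without replicate 3 or 5 of SBH/y with 1 kidney (adjusted p = 0.0387 and 0.0121). For the dimmer probe set of Cd44 the excess was 0.75 ± 0.19 (adjusted p = 0.104), and for Lcn2 the interval ran from -0.28 to 0.15.

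**Figure D3:**
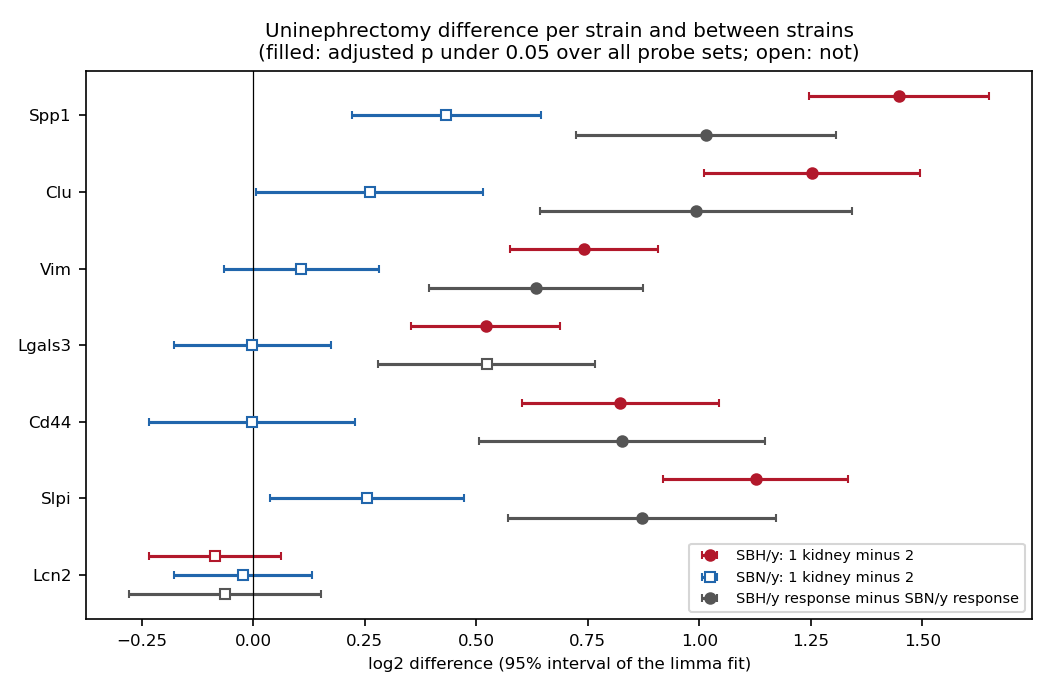
Log2 difference with its 95% interval from the limma fit for each gene, 1 kidney minus 2 kidneys in SBH/y (red), the same in SBN/y (blue) and the SBH/y response minus the SBN/y response (grey). Filled circles passed an adjusted p of 0.05 over all probe sets and open squares did not: 6 filled in SBH/y, 0 in SBN/y and 5 for the difference between responses.

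With 2 kidneys in place, 3 of the 7 genes were already higher in SBH/y than in SBN/y, where limma called 4.32% of all probe sets upwards. The groups did not overlap for the same 3 genes, as for 3.73% of all probe sets upwards. Lgals3 was higher by 0.76 ± 0.09 log2 (SE), or 1.70-fold (limma adjusted p = 2.31e-07), a reading that rests on 1 probe set. Spp1 was higher by 0.51 ± 0.10 (adjusted p = 0.00112) and Slpi by 0.38 ± 0.11 (adjusted p = 0.0201). The call for Slpi was lost without replicate 5 of SBN/y with 2 kidneys (adjusted p = 0.0667) and with the GAPDH measure as a covariate (0.32, adjusted p = 0.109). Clu differed by 0.02 ± 0.12, with a 95% interval of -0.23 to 0.28, and Vim by 0.14 ± 0.08 (interval -0.03 to 0.31). For Cd44 the probe sets differed, with 0.25 ± 0.11 at the brighter one (adjusted p = 0.2) and 0.66 ± 0.14 at the dimmer one (adjusted p = 0.00147).

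Among rats with 1 kidney, 6 of the 7 genes were higher in SBH/y than in SBN/y, all but Lcn2, against 7.55% of all probe sets upwards. The same 6 had groups that did not overlap, against 3.93% upwards overall. Spp1 was higher by 1.52 ± 0.10 log2 (SE), or 2.87-fold, and Lgals3 by 1.29 ± 0.08. Slpi was higher by 1.25 ± 0.10, Cd44 by 1.08 ± 0.11, Clu by 1.01 ± 0.12 and Vim by 0.78 ± 0.08, with limma adjusted p values between 2.83e-12 and 2.84e-07. The comparisons share arrays with those given above and are not independent of them. With 2 kidneys a smaller strain difference passed for Lgals3 (0.76 log2), Spp1 (0.51) and Slpi (0.38). It did not pass there for Clu and Vim, and for Cd44 it passed only at the dimmer probe set (0.66).

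The uninephrectomised SBH/y rats also differed among themselves. The SD over these 6 rats was between 0.22 and 0.42 log2 for the 6 genes that rose, against 0.07 to 0.12 for the same genes in SBH/y rats with 2 kidneys, while the median SD over all probe sets was 0.13 and 0.12 in these groups. For Clu, 99.5% of all probe sets had a smaller SD among SBH/y rats with 1 kidney, and for Spp1 97.5%. Replicate 1 was the highest of the 6 rats for all 6 genes and replicate 5 the lowest for all 6. Replicate 1 lay 2.05 log2 above the mean of SBH/y rats with 2 kidneys for Clu, where replicate 5 lay 0.85 above it. Without replicate 1 the SD of Clu in that group was 0.16 and that of Spp1 0.17 (n = 5). The rises in SBH/y were then 1.09 log2 for Clu, 1.34 for Spp1, 1.03 for Slpi, 0.70 for Cd44, 0.66 for Vim and 0.44 for Lgals3, and each passed the limma test.

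**Figure D4:**
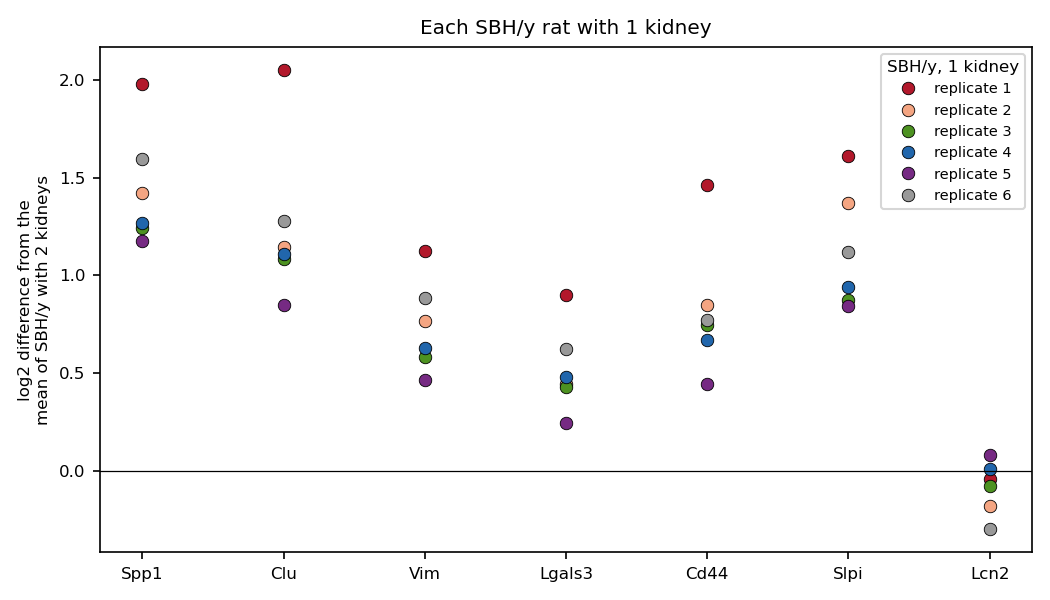
Log2 difference of each of the 6 SBH/y rats with 1 kidney from the mean of SBH/y rats with 2 kidneys, by gene. For the 6 genes that rose, replicate 1 is the highest point and replicate 5 the lowest in every column, and all points lie above 0, whereas the Lcn2 points straddle 0.

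After the group means were subtracted, the same 6 genes varied together from rat to rat. Over 23 arrays, Pearson r among them lay between 0.43 (Spp1 with Slpi) and 0.85 (Spp1 with Vim), and Lcn2 had an r between -0.22 and 0.01 with each. These values describe arrays that share groups, and the SBH/y rats with 1 kidney had the widest spread for these 6 genes. Of 9466 other genes brighter than the median probe set, those closest to Spp1 in this sense were Runx1 (r = 0.86), Myof (0.85) and S100a10 (0.84). Closest to Clu were Mgp (0.88), Timp1 (0.85) and S100a10 (0.81), and closest to Vim were Runx1 (0.85), Axl (0.82) and S100a11 (0.82). Lgals3 went with Tgif1 (0.84), Pxdn (0.81) and Rack1 (0.77). Cd44 went with Shfl (0.81), Mgp (0.80) and Fn1 (0.79). Slpi went with Col5a2 (0.86), Npc2 (0.84) and Cybb (0.81), and Lcn2 with Tpbgl (0.81), Invs (0.78) and Apoc4 (0.77).

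The samples were whole kidneys, so more cells of a type and more RNA per cell cannot be told apart, and markers of other cells moved with these genes. Of 17 macrophage markers, 13 rose in SBH/y after uninephrectomy and none fell. Over all probe sets limma called 3.06% upwards in this comparison, which stands beside the counts of rising markers below as well. The mean log2 level of that list lay between 6.21 and 6.67 in SBH/y rats with 1 kidney, against 5.76 to 5.88 in SBH/y rats with 2 kidneys, and between 5.75 and 6.07 in SBN/y rats with 1 kidney, against 5.61 to 5.72 in SBN/y rats with 2 kidneys. Its leading genes were Gpnmb (1.76 ± 0.14 log2, SE), the macrophage elastase gene Mmp12 (1.45 ± 0.13) and Cd68 (0.67 ± 0.09), and Cd163 stayed in the Xist range on all arrays. Of 11 fibroblast and pericyte markers, 6 rose, led by Col3a1 (0.72 ± 0.09), Fbn1 (0.67 ± 0.08) and Col1a2 (0.50 ± 0.08). Their mean level lay between 6.84 and 7.19 in SBH/y rats with 1 kidney, against 6.53 to 6.76 in SBH/y rats with 2. Of 7 T cell markers, 4 rose, led by Cd3g (0.62 ± 0.08), and their mean level lay between 4.34 and 4.61 in SBH/y rats with 1 kidney, against 4.04 to 4.19 in SBH/y rats with 2.

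Within groups, the mean of the macrophage list had an r between 0.57 (Spp1) and 0.77 (Lgals3) with the 6 genes over 23 arrays, and that of the fibroblast list between 0.50 (Spp1) and 0.72 (Cd44). The mean of the proximal tubule list had a negative r with all 6, between -0.64 (Spp1) and -0.23 (Cd44). For Spp1 that r was larger in size than those with the macrophage list (0.57) and the fibroblast list (0.50). The part of these cells in the rise of the 6 genes was not tested. None of 7 measured neutrophil markers passed in either direction. The mean of that list lay between 2.90 and 3.02 in SBH/y rats with 1 kidney, against 2.86 to 3.12 in SBH/y rats with 2, within the Xist range. It reached 3.37 in SBN/y rats with 1 kidney, and none of the 7 markers stayed in the Xist range on all arrays. Markers of some other cells fell: 5 of 9 for the collecting duct (Slc4a1, Rhcg and Foxi1 had the smallest p), 2 of 6 for endothelium (Emcn and Kdr) and 2 of 4 for podocytes (Nphs1 and Wt1). In the same comparison limma called 5.04% of all probe sets in either direction and 3.06% upwards. No marker passed among 6 of the thick ascending limb and distal convoluted tubule or 2 of red blood cells. None of 7 proximal tubule markers passed between the SBH/y groups, with a list mean between 10.60 and 10.79 against 10.64 to 10.75 in the same groups. With the GAPDH measure as a covariate, the rises in SBH/y were 1.45 log2 for Spp1, 1.30 for Clu, 1.09 for Slpi, 0.81 for Cd44, 0.73 for Vim and 0.55 for Lgals3, all past the limma test.

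**Figure D5:**
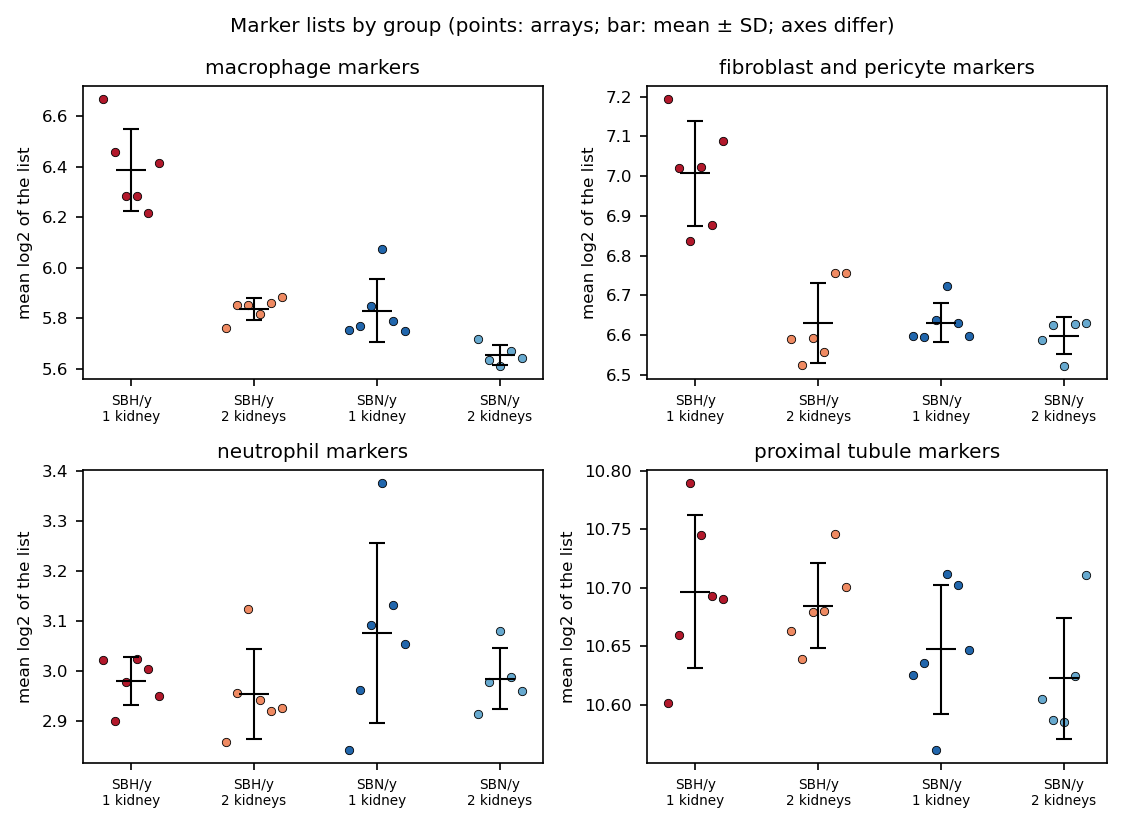
Mean log2 level of the macrophage (17 genes), fibroblast and pericyte (11), neutrophil (7) and proximal tubule (7) marker lists on every array (points), with group mean and SD (bars); vertical axes differ. The macrophage and fibroblast lists separate SBH/y rats with 1 kidney from SBH/y rats with 2 kidneys, and the neutrophil and proximal tubule lists do not.

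Of 36 other measured genes linked to tubular injury, 19 rose and 1 fell in SBH/y after uninephrectomy, with a median difference of 0.27 log2. Over all probe sets limma called 3.06% upwards and 5.04% in either direction there, with a median difference of -0.01. Those with the smallest p were Havcr1, the proximal tubule injury receptor known as Kim-1 (3.20 ± 0.24, SE), the metalloproteinase inhibitor gene Timp1 (0.95 ± 0.10), the keratin gene Krt8 (0.47 ± 0.06), the calcium-binding S100a11 (0.52 ± 0.07) and the annexin gene Anxa2 (0.47 ± 0.07). The trefoil factor gene Tff3 fell by 0.41 log2. In SBN/y 3 rose, Havcr1, the heme oxygenase gene Hmox1 and the cell cycle inhibitor gene Cdkn1a, against 0.0838% of all probe sets upwards. The interaction term passed for 6, against 0.209% upwards over all probe sets, each with the larger response in SBH/y: Timp1 (0.86 log2), Havcr1 (1.83), Anxa2 (0.50), S100a11 (0.47), Krt8 (0.39) and S100a10 (0.49).

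Of 16 genes for osteopontin receptors and processing enzymes, 3 rose in SBH/y and 1 fell: the proteases Mmp12 (1.45 ± 0.13 log2, SE) and Mmp2 (0.47 ± 0.08) and the integrin gene Itga9 (0.45 ± 0.08) rose, and Mmp9 (-0.52 ± 0.12) fell. The list had a median of 0.00. In SBH/y limma called 3.06% of all probe sets upwards and 5.04% in either direction, shares that stand beside all counts of partner genes. Of 9 hyaluronan and CD44 partner genes, only Mmp14, a membrane protease known to cleave CD44, passed (0.52 ± 0.08). Of 6 galectin family genes, the galectin 3 binding protein gene Lgals3bp (0.59 ± 0.10) and Lgals1 (0.28 ± 0.08) rose. The hyaluronan and galectin lists had medians of 0.06 and 0.003. Lgals1 stood at 8.73 ± 0.12 in SBH/y rats with 1 kidney and 8.45 ± 0.13 in SBH/y rats with 2 (SD, n = 6 each), against 7.43 ± 0.19 (SD, n = 6) in SBN/y rats with 1 kidney and 7.53 ± 0.08 (SD, n = 5) in SBN/y rats with 2, so the strains were apart for it as for Lgals3.

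Of 11 intermediate filament genes other than Vim, 4 rose in SBH/y: Krt8, the muscle filament gene Des (0.40 ± 0.07 log2, SE) and the lamin genes Lmna (0.29 ± 0.06) and Lmnb1 (0.32 ± 0.08). Of 12 genes for receptors and inducers of lipocalin 2, the NF-kB subunit genes Nfkb2 (0.38 ± 0.07) and Nfkb1 (0.26 ± 0.07) and the transcription factor gene Cebpd (0.44 ± 0.13) rose, while Lcn2 itself did not pass. Of 9 genes for clusterin receptors and terminal complement, C5 rose (0.30 ± 0.08), and the list had a median of -0.002. Of 6 measured genes on a list of elastase inhibitor targets and relatives, the progranulin gene Grn rose (0.30 ± 0.06), with a list median of 0.05. A single call in a list this small is not read as a result about the list. The protease genes of that list, Elane and Ctsg, were not measured. The interaction term passed for Mmp12 (1.31), Mmp2 (0.55), Mmp14 (0.54) and Krt8 among these partner genes, against 0.209% of all probe sets upwards. None of the 7 partner lists had a member past the test in SBN/y after uninephrectomy, where 0.168% of all probe sets passed in either direction.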

How the data were processed

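Rat kidney RNA was hybridised to 23 Affymetrix arrays, each taken as 1 rat. Per the submitters' processing notes, the authors used RMA and GCOS (versions not given in the sources used here); the deposited log2 values hold 1 number per probe set and array. RMA equalises the distributions of the arrays, so a change in total mRNA could not be seen. Groups came from the sample titles. The labels name no batch and say nothing of separate animals beyond the titles, so a p-value speaks only of the spread among the arrays, which may be technical. No column of values was left unused.

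Of 31099 probe sets, 57 controls were left out. A platform annotation gave 1 symbol for 20826 probe sets, several for 436 and none for 9780. Of those with 1 symbol, 20758 probe sets matched RefSeq (GRCr8) by gene identifier, used for current symbols. One limma fit (limma 3.58.1, R 4.3.3) with 4 group means gave 5 contrasts, two-sided, adjusted by the Benjamini-Hochberg method over all 31042 probe sets with a threshold of 0.05, and was tested on simulated data. The number of arrays limits the precision. The members, the lists and the naming rule were chosen with earlier results of these data known. The rule named all 7 members, up to 5 genes with the smallest p of each partner list, up to 3 of each marker list, and the 3 genes closest to each member in their deviations from group means. The brightest probe set stood for a gene. Correlations between the deviations of same-numbered arrays of different groups ran from -0.17 to 0.26. Between the SBN/y groups they were 0.007 to 0.15, and 3 of 5 arrays were closest to their own number. In the other comparisons 1 of 6 (SBH/y), 1 of 5 (2 kidneys) and 0 of 6 (1 kidney) were. The numbers were not taken as pairs in the main fit.

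The alternatives were a repeated quantile normalization, dim probe sets left out, a trended and robust variance, only the groups compared, the next probe set, 1 probe set per gene, the replicate number as a block, a GAPDH covariate, exact permutation tests, 2 arrays left out together and each array left out in turn. One more was added after the values had been seen.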

Additional observations from a re-analysis of the deposited data

Results flagged for a closer look

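The response to uninephrectomy differed between the strains for 5 of the 7 genes by the interaction term of the limma fit, which called 0.254% of all probe sets in either direction. The response in SBH/y minus that in SBN/y was 1.01 log2 for Spp1, 0.99 for Clu, 0.63 for Vim, 0.83 for Cd44 and 0.87 for Slpi. At the dimmer probe sets it did not pass for Clu (0.015, limma adjusted p = 0.993) or Cd44 (0.75, limma adjusted p = 0.104). Single arrays also stood apart from their groups. Among uninephrectomised SBH/y rats, Clu was read at 10.54 in replicate 1 and at 9.77 in the nearest rat, and Cd44 at 5.18 in replicate 6 of SBN/y with 1 kidney, with the nearest at 5.45. Among 36 sets of values tested in this way (9 probe sets in 4 groups), 2 were singled out, and chance alone gives about 5% of such sets.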

How the results depend on the processing

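Of 341 values of single genes under alternatives other than leaving out 1 array, 320 kept their direction and their side of the threshold, as did 466 of 483 with 1 array left out. The threshold of 0.05 applied to adjusted p values, except that exact permutation p values were set against the unadjusted limma p. Sign changes occurred for 4 differences close to 0 that passed the test in no alternative. In SBN/y, Cd44 (-0.0033 log2) was 0.41 at the next probe set, 0.0092 with the replicate block, 0.050 without a pair of arrays (replicate 1 of SBH/y and replicate 6 of SBN/y with 1 kidney) and -0.042 to 0.050 with 1 array left out. Lgals3 in SBN/y (-0.0022) was 0.033 with the GAPDH covariate, 0.0076 without that pair and -0.049 to 0.041 with 1 array left out, and Lcn2 in SBN/y (-0.023) was -0.060 to 0.0091 with 1 left out. Clu between strains with 2 kidneys (0.022) was -0.024 without 2 arrays that stood far apart and -0.024 to 0.046 with 1 left out. The interaction of Lgals3 passed with dim probe sets left out (0.52 log2, limma adjusted p = 0.0397), with a trended and robust variance (0.52, 0.0198) and with 1 probe set per gene (0.52, 0.0334). With the replicate block that interaction was 0.53 (limma adjusted p = 0.0460). For uninephrectomy in SBH/y and in SBN/y, the block gave 1515 and 48 called probe sets. It gave 67 for the interaction, and 2718 and 4302 between strains with 2 kidneys and with 1. The interaction called 79 probe sets, against 124 with the trended and robust variance, 124 with the GAPDH covariate and 48 without that pair, which was chosen after seeing the data. Without that pair, uninephrectomy in SBH/y called 1032 probe sets (1563 with all arrays), Spp1 in SBN/y passed (0.45, adjusted p = 0.0160) and Cd44 passed between strains with 2 kidneys (0.25, 0.0226). With only the groups compared, the same 2 results passed (Spp1 0.43, adjusted p = 0.0302; Cd44 0.25, 0.0350). At the next probe set of a gene, Clu did not pass in SBH/y (0.18), in the interaction (0.015) or between strains with 1 kidney (0.12), Cd44 did not pass in the interaction (0.75), and Cd44 passed between strains with 2 kidneys (0.66). With 1 probe set per gene, fewer were tested and 1748 and 2810 were called between strains with 2 kidneys and with 1. Between strains with 2 kidneys, Slpi missed the threshold with the GAPDH covariate (0.32), and Vim had an exact permutation p = 0.0433 (0.14). The cause of these changes was not tested, apart from the smaller number of probe sets or arrays that an alternative itself sets. With each array left out in turn, called probe sets ran from 24 to 78 for uninephrectomy in SBN/y (52 with all arrays; 24 to 34 without any 1 of replicates 1, 2, 3 and 4 with 2 kidneys or 1 and 3 with 1) and from 52 to 157 for the interaction (52 without replicate 6 of SBN/y with 1 kidney; 131, 157 and 133 without replicate 4 of that group and replicates 3 and 5 of SBH/y with 1 kidney), the interaction of Lgals3 from 0.45 to 0.58 and the strain difference of Slpi with 2 kidneys from 0.34 to 0.41. Signal close to background limits what Lcn2 and the dimmer probe set of Clu can show.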
